A study of Homo sapiens with 18 samples.

Results

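The protein-coding histone genes of the human genome were examined as RNA in glioblastoma cells with and without Erastin. Genes were matched by symbol, under a rule set with earlier results of these data known, and 77 of the 58302 genes in the count table matched. Of these, 65 were clustered genes (H1-1 to H1-6 and the numbered H2AC, H2BC, H3C and H4C genes) and 12 were variant genes that stand apart from the clusters (among them H1-7, H1-8, H1-10, H2AX, H2AZ1, H2AZ2, H2AJ, MACROH2A1, MACROH2A2, H3-3A and H3-3B). The clustered genes comprised 6 H1, 15 H2A, 18 H2B, 11 H3 and 15 H4 genes, of which 53 lay on chromosome 6 between positions 25726132 and 27893843, 11 on chromosome 1 and 1 on chromosome 12 (GRCh38).

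The study asked how the transcriptome and the 3D chromatin structure change in ferroptosis, an iron-dependent form of cell death. Erastin blocks the cystine importer system Xc- and thereby lowers glutathione. All libraries came from U87, an established human glioblastoma line (also called U87MG) grown in DMEM with 10% fetal bovine serum and penicillin/streptomycin: 2 RNA libraries were from control cells labelled as in normal growth condition, and 2 were from cells given 10 μM Erastin for 72 h. The series holds 18 samples, and the ChIP-seq, input and HiChIP samples were not analysed here. The labels do not say whether the 2 libraries of a group came from separate cultures, so p-values measure the spread between these libraries, which may be technical.

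Nucleosomes are spools of DNA around the core histones H2A, H2B, H3 and H4, and the linker histone H1 binds the DNA between them. Clustered genes supply core and linker histones while DNA is being copied, and their mRNAs classically end in a stem-loop that is bound by SLBP, the stem-loop binding protein, instead of ending in a poly(A) tail. Variant genes supply replacement histones through the whole cell cycle from ordinary polyadenylated mRNAs: H2AZ1 and H2AZ2 encode H2A.Z, which sits at promoters, the MACROH2A genes encode an H2A with a large extra domain, H2AX is phosphorylated at DNA breaks, and H3-3A and H3-3B encode the same replacement H3 protein.

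The stem-loop sequence divides the members, so it is shown first. The pattern searched was GG, 2 free bases, CT, a loop of 4 free bases, AG, 2 free bases and CC, on the transcript strand, in the 100 bases after the stop codon of each gene's canonical GENCODE release 44 transcript. All 65 clustered genes held it, 22 to 62 bases past the stop codon, and so did 1 of the 12 variant genes, H2AX. Among other protein-coding genes, 69 of 19842 (0.348%) held the pattern in that window, and 2 of these 69 had a histone name outside the rule. The 16-base stem-loop took 10 different forms: 36 clustered genes shared the form of H2AC6 below and 10 shared that of H4C8, while H3C6 and H2AC11 each had a form of their own. Genes were chosen for display to show the strongest rise and a fall among the clustered genes. H4C16, which did not pass the test below, and the exceptional variant gene were added. Capitals mark the stem-loop, with 5 genomic bases on each side, 5′ to 3′ on the transcript strand.
H2AC6 (chr6:26124664-26124689, plus strand): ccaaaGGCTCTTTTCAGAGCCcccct
H2AC11 (chr6:27133510-27133535, plus strand): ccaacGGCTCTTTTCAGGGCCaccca
H2BC21 (chr1:149886183-149886208, minus strand): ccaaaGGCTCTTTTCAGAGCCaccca
H2BC9 (chr6:26252050-26252075, plus strand): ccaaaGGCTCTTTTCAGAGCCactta
H2BC12 (chr6:27146361-27146386, minus strand): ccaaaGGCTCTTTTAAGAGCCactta
H3C6 (chr6:26225591-26225616, plus strand): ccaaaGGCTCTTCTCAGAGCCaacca
H4C8 (chr6:26285126-26285151, minus strand): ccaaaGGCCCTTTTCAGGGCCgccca
H4C16 (chr12:14770719-14770744, minus strand): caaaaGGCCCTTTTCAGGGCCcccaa
H2AX (chr11:119094893-119094918, minus strand): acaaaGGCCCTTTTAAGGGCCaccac

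Promoters also set the families apart. RefSeq promoters (GRCh38.p14) were matched by symbol for 60 clustered and 11 variant genes, and the 250 bases before the start were searched on both strands. The octamer ATTTGCAT stood in 14 of 18 clustered H2B and 11 of 14 clustered H2A promoters. It stood in 1 of 9 clustered H3 promoters and in none of the 6 H1 and 13 H4 promoters. The share over all 35116 RefSeq promoters was 1.63%. That H3 promoter, matched to H3C4, had the same coordinates as that of H2AC7, so 1 octamer was counted for both. Head-to-head H2A and H2B genes have starts 219 to 331 bases apart, so their windows can share an octamer. In H2AC8, H2AC11, H2AC14, H2AC16, H2AC20 and H2AC21 it did not lie wholly within the 150 bases nearest the start. In each H2B promoter that held it, it did. CCAAT stood in every clustered H1, H2A, H2B and H3 promoter but in only 3 of 13 H4 promoters, against 32.0% of all promoters. TATAAA stood in 39 of the 60 clustered promoters (65.0%) and in 4 of the 11 variant promoters, against 10.7% of all. The 150 bases before the start are printed for the clustered genes with the largest rises in H2A and H4, for the H2B gene with the highest level over all libraries and for the H2B gene that fell. Capitals mark ATTTGCAT, CCAAT and TATAAA on either strand.
H2AC6 (chr6:26124022-26124171, plus strand): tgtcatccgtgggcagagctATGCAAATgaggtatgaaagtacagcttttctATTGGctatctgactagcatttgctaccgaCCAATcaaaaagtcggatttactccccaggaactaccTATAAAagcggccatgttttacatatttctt
H4C8 (chr6:26285535-26285684, minus strand): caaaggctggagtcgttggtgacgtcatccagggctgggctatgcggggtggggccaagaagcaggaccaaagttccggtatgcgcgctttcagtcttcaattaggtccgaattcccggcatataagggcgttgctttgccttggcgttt
H2BC21 (chr1:149886683-149886832, minus strand): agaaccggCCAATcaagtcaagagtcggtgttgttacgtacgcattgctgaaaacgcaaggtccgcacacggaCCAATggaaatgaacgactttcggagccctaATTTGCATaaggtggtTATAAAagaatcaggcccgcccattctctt
H2BC9 (chr6:26251464-26251613, plus strand): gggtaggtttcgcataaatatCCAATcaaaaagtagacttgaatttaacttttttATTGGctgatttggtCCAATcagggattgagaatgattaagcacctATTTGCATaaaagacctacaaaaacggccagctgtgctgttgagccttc
Both H2B promoters held the octamer and CCAAT, and only that of H2BC21 held TATAAA. None of the searched letters stood in the printed H4C8 promoter.

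The libraries held 29412656 to 31513519 counts on genes, and the spread between replicates, the common biological coefficient of variation, was 10.3%. In edgeR's quasi-likelihood test over 16751 genes, the median log2 fold change was -0.0026 (Erastin over control throughout). VIM and CD44, which U87 cells express, stood at 2515 and 1405 CPM (counts divided by scaled library size) in control cells, and NES, another gene listed for the line, went from 1277 and 972 counts to 105 and 77. Of its other listed markers, GFAP had 41 to 81 counts in a library, OLIG2 59 to 88, SOX2 at most 6 and S100B at most 2. Among markers of other cells, the immune genes PTPRC and AIF1 had at most 1 count and the oligodendrocyte genes MBP and MOG at most 7, while of the endothelial genes CLDN5 had no count and PECAM1 went from 138 and 188 counts in control to 31 and 33 in Erastin libraries. SYT1, listed for neurons, had 532 and 562 counts in control and 281 and 269 in Erastin libraries, and RBFOX3, EPCAM and KRT8 had at most 14. The part of other cells in the histone counts was not tested. Since RNA came from whole cultures, fewer cells that express a gene and less RNA per cell cannot be told apart.

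The summed levels of clustered and of variant histone genes moved in opposite directions in ferroptotic cells. Summed over all 65 clustered genes, with no filter on low values, the level was 53.1 and 52.9 CPM in the control libraries and 217 and 247 CPM in the Erastin libraries. Both Erastin libraries stood above both control libraries, and the mean rose from 53.0 ± 0.157 to 232 ± 21.5 CPM (SD, n = 2 libraries in each group), a ratio of 4.38. Summed over the 12 variant genes, the level was 909 and 897 CPM in control cells and 759 and 737 CPM in Erastin-treated cells, a ratio of 0.828. The sum over all 77 histone genes therefore hardly moved, from 956 ± 8.52 to 980 ± 5.56 CPM (SD, n = 2). The share of it that came from clustered genes went from 5.54% to 23.7%. CPM were not divided by exon length here, and reads that matched several places were not counted. Both the total and the share are thus of counted reads, not of RNA molecules. No p-value is attached to these sums, whose members were chosen with earlier results of these data known.

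**Figure D1:**
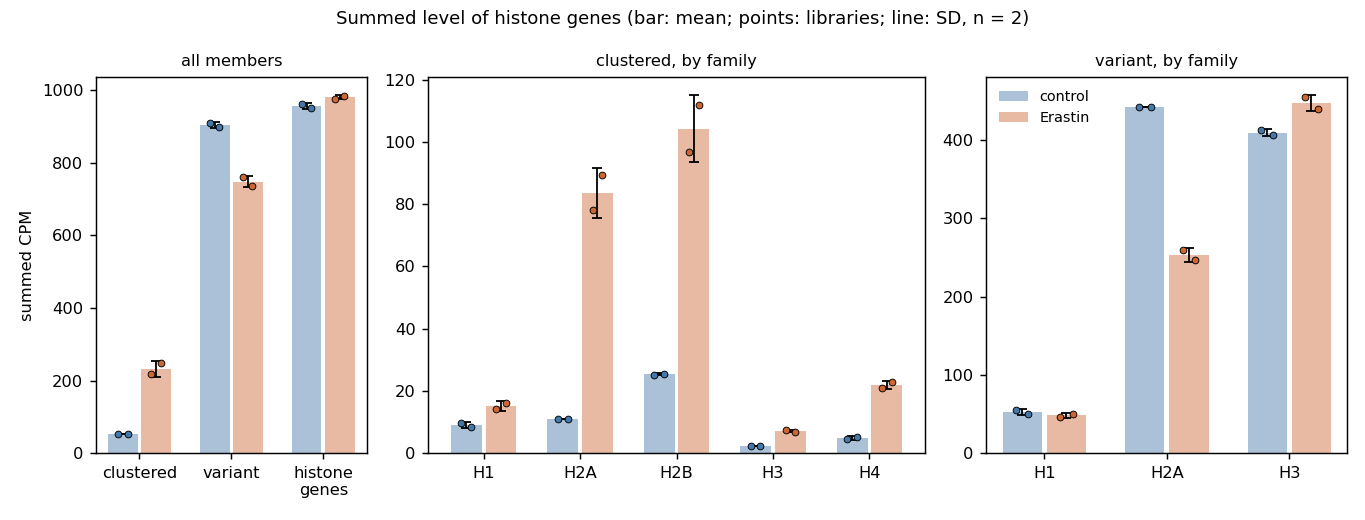
Summed CPM of histone genes in control and Erastin libraries for all members, for the clustered families and for the variant families; bars are means, points are libraries and lines are the SD of 2 libraries, and each panel has its own axis from 0. Clustered genes stood at 53.0 CPM in control and 232 CPM in Erastin-treated cells, variant genes at 903 and 748 CPM.

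The rise was spread over the clustered families but unequal. The summed H2A level rose from 11.1 to 83.7 CPM (7.56 times), H4 from 4.94 to 22.0 CPM (4.44 times), H2B from 25.5 to 104 CPM (4.10 times) and H3 from 2.34 to 7.18 CPM (3.07 times), whereas the linker family H1 rose from 9.20 to 15.2 CPM (1.65 times). The Erastin libraries exceeded the controls in each of these families, with no overlap. A single gene, H2AC6, supplied 10.3% of the clustered sum in control and 31.4% in Erastin-treated cells; without it, the sum still went from 47.5 to 159 CPM, 3.35 times.

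Gene by gene, most clustered genes were too low to test. The low-count filter of edgeR kept 33 of the 77 histone genes, 24 of 65 clustered and 9 of 12 variant genes, and 14 histone genes had no count in any library. With the thresholds of the study (a log2 fold change of 1 or more in either direction and a Benjamini-Hochberg adjusted p under 0.05), 15 of the 24 tested clustered genes were upregulated, against 6.24% of all tested genes, 1 was downregulated, against 9.34%, and 8 were in neither class. At the adjusted p alone, 16 rose and 1 fell, against 23.2% and 23.7% of all tested genes. Both Erastin libraries stood above both control libraries in 19 of the 24 and below in 1, against 36.7% and 36.9%. The median log2 fold change of the 24 was 2.19, with a range from -2.10 to 5.75. These 24 are not an even sample of the 65: 8 of them (H1-4, H2AC8, H2BC6, H2BC8, H2BC26, H3C10, H4C5 and H4C8) were above the filter in both Erastin libraries but not in both control libraries, and H2BC9 passed through the control libraries, so a gene could enter by having changed. Of the 15 clustered genes that were above the filter in all 4 libraries, a requirement that the fallen H2BC9 did not meet, 11 were upregulated and none downregulated.

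Which clustered genes gave counts followed the gene model that was counted. In 25 clustered genes the exons of the deposited model (Ensembl release 90) ran at least 100 bases past the stem-loop, and 20 of these 25 passed the filter. In the other 40, whose models ended closer to the stem-loop or before it, 4 passed: H1-2, H1-4, H2AC8 and H2BC12. The polyadenylation signal AATAAA lay in the model past the stem-loop of 20 clustered genes, of which 16 were tested (12 upregulated, 1 downregulated). It was absent from that stretch in 45, of which 8 were tested (3 upregulated). Over all tested genes, 6.24% were upregulated and 9.34% downregulated. Some genes passed the filter through the Erastin libraries: H2BC6, H2BC26, H3C10, H4C5 and H4C8 with the signal, and H1-4, H2AC8 and H2BC8 without it. The part of the signal in the changes was not tested. Longer models can collect more reads from the same RNA. Reads that matched several places were not counted, so the count of a short or duplicated gene is a lower limit of its RNA. Some models reach far, that of H2BC15 from 27837760 to 27865798 on chromosome 6, with 5477 exon bases. Counts per gene do not show where in a model the reads lay. Whether a rise lay on the histone-coding exon could therefore not be seen. Among tested clustered genes the share of 50-base words also found in another histone gene was at most 22.6% (H2BC12), with a median of 0.504%; among the 41 untested clustered genes the median was 1.80%, and the share reached 100% and was at least 50% in 10. Whether the untested genes changed could not be detected at this depth: their counts summed to 79 and 68 in control and to 94 and 53 in Erastin libraries.

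**Figure D2:**
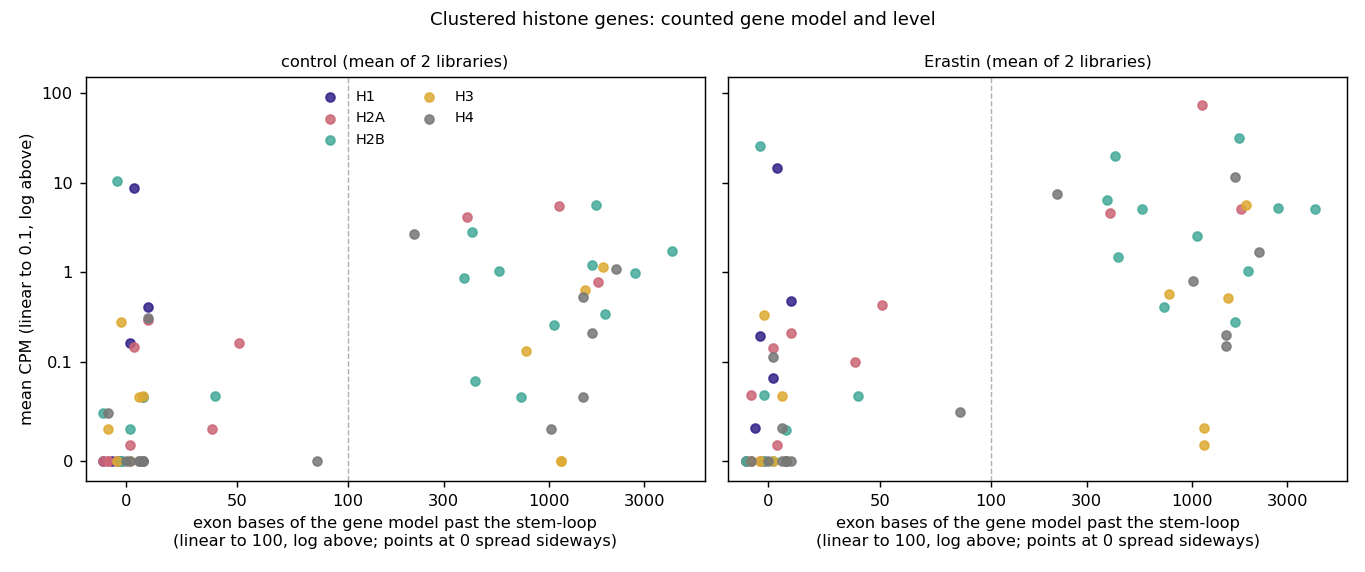
Mean CPM of each of the 65 clustered genes in control (left) and Erastin-treated cells (right), coloured by family, against the number of exon bases that the counted gene model has past the stem-loop. Right of the dashed line at 100 bases stand the 25 genes with extended models, and most of the genes at or above 1 CPM are among them; H2BC12 and H1-2, at the left edge, are the exceptions above 5 CPM.

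Neither of the 2 tested linker genes of the clusters reached the fold threshold. H1-2, the linker gene with the most counts among them, had 287 and 245 counts in control and 398 and 488 in Erastin libraries, a rise of 0.74 on the log2 scale (SE 0.159, edgeR adjusted p = 0.00237) that stayed under the fold threshold. H1-4 had 9 and 16 counts in control and 13 and 16 in Erastin libraries, and its groups overlapped. The other 4 genes, H1-1, H1-3, H1-5 and H1-6, had at most 8 counts in any library.

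Among the clustered genes, an H2A gene had the largest rise in CPM. H2AC6 (ENSG00000180573, chr6:26124145-26139116), a core H2A gene, had 165 and 172 counts in control and 2006 and 2481 in Erastin libraries. The Erastin libraries stood far above the controls, with means of 5.47 ± 0.0994 and 73.0 ± 8.41 CPM (SD, n = 2) and a rise of 3.74 on the log2 scale (SE 0.121, edgeR adjusted p = 8.59e-10). H2AC11 had 34 and 14 counts in control and 153 and 159 in Erastin libraries, with no overlap, and rose by 2.70 (SE 0.377, adjusted p = 1.05e-04). By contrast, H2AC25 on chromosome 1 had 110 and 143 counts in control and 143 and 140 in Erastin libraries; its groups overlapped and its log2 fold change of 0.17 (SE 0.235) did not pass the test. H2AC8, with 4 to 16 counts in a library, did not pass it either (adjusted p = 0.187).

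H2B genes were the most often tested family, and 9 of its 11 tested members were upregulated, against 6.24% of all tested genes. Of these, H2BC6, H2BC8 and H2BC26 were above the filter in both Erastin libraries but not in both control libraries. H2BC9 passed it through the control libraries. A gene could thus enter this count by having changed, so the count cannot be weighed against the share of all genes. H2BC21 (ENSG00000184678, chr1:149884459-149886652), the H2B gene with the highest mean CPM, had 170 and 172 counts in control and 875 and 1057 in Erastin libraries, from 5.55 ± 0.0162 to 31.4 ± 3.10 CPM (SD, n = 2). Its groups were wide apart, with a log2 fold change of 2.50 (SE 0.134, edgeR adjusted p = 3.97e-08). H2BC5 had 74 and 98 counts in control and 532 and 691 in Erastin libraries (log2 fold change 2.83, SE 0.189, adjusted p = 2.49e-07). H2BC4 had 32 and 21 counts in control and 149 and 247 in Erastin libraries (2.89, SE 0.336, adjusted p = 2.41e-05). Neither gene had overlapping groups. H2BC8 had 12 and 4 counts in control and 81 and 76 in Erastin libraries (3.28, SE 0.510, adjusted p = 2.39e-04). H2BC6 had 1 and 4 counts in control and 40 and 50 in Erastin libraries; the ratio of the summed, scaled counts was 18.7, with an exact 95% counting interval from 7.73 to 59.1, and the adjusted p was 4.73e-04. Both rose from a low base, and 28.2% of the exon bases of H2BC6 were also covered by ENSG00000283064 on the opposite strand, which had 2 and 1 counts in control and 8 and 22 in Erastin libraries; without strand, their reads cannot be told apart. The other 4 upregulated H2B genes were H2BC12 (335 and 304 to 692 and 868 counts), H2BC11, H2BC15 and H2BC18, with log2 fold changes between 1.29 and 2.38. H2BC18 shared 5.54% of its exon bases with FCGR1A, whose counts were 2 and 2 in control and 57 and 50 in Erastin libraries. The span of H2BC18 also overlapped ENSG00000233030 on the same strand, without shared exon bases. That gene had 0 and 2 counts in control and 112 and 118 in Erastin libraries. The part of these neighbours in the rise of H2BC18 was not tested.

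H2BC9 went the other way. It had 28 and 46 counts in control and 6 and 11 in Erastin libraries, so that both Erastin libraries lay below both controls. Its log2 fold change was -2.10 (SE 0.595, edgeR adjusted p = 0.0122), and the call rested on few counts: without control replicate 2 it was -1.72 (adjusted p = 0.147), and without Erastin replicate 1 it was -1.77 (adjusted p = 0.0607). Its promoter and stem-loop, printed above, held the same octamer, CCAAT and 16-base stem-loop letters as those of the upregulated H2BC21. H2BC26, the remaining tested H2B gene, had 2 and 19 counts in control and 26 and 38 in Erastin libraries and did not pass the test (adjusted p = 0.103); without control replicate 2 its log2 fold change was 3.90 (adjusted p = 0.00208).

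**Figure D3:**
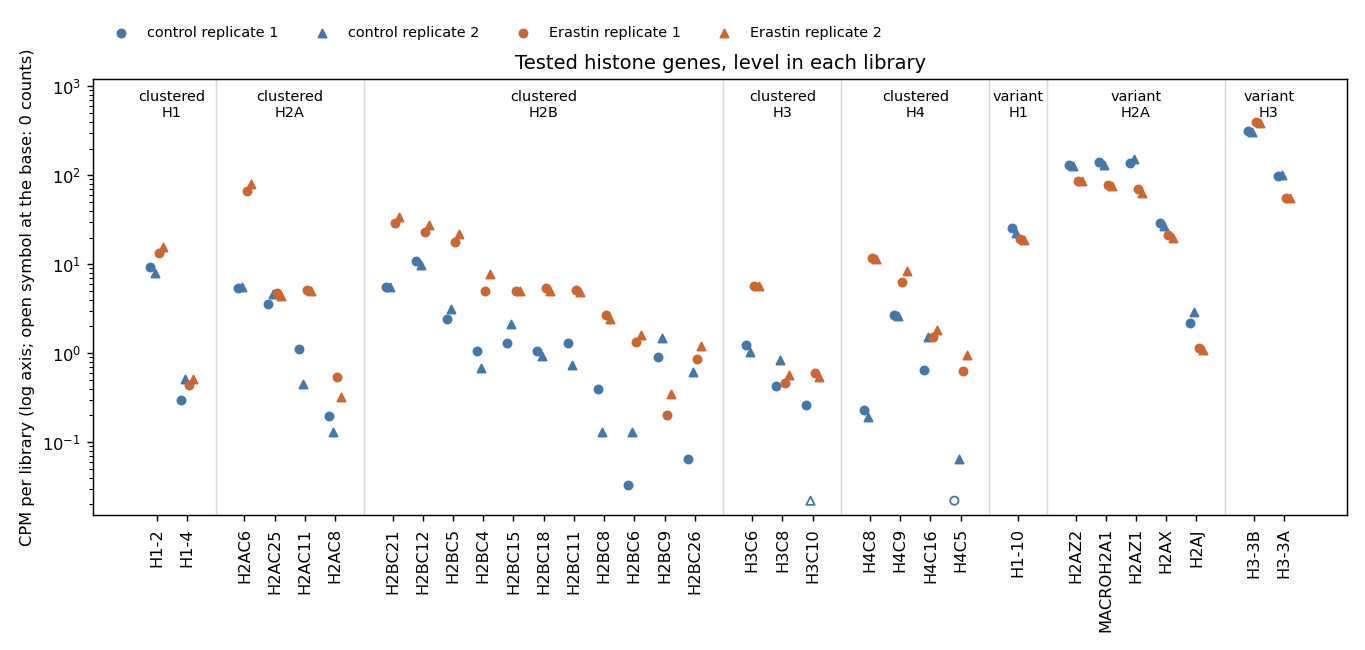
CPM in each of the 4 libraries (log axis) for 32 tested histone genes, grouped by class and family and ordered by mean level within a group; circles are replicate 1, triangles replicate 2, and open symbols at the base stand for 0 counts. Erastin libraries lie above the controls for most clustered genes and below them for H2BC9. They lie below them for 7 of the 8 variant genes shown, against 36.9% of all tested genes.

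Fewer H3 and H4 genes could be tested. Of these, 1 of 3 tested H3 genes and 3 of 4 tested H4 genes were upregulated, against 6.24% of all tested genes. H3C10, H4C5 and H4C8 were above the filter in both Erastin libraries but not in both control libraries. Such genes could be tested because they were high with Erastin, so these counts cannot be weighed against the share of all genes. H3C6 (ENSG00000274750), a core H3 gene, had 38 and 32 counts in control and 169 and 177 in Erastin libraries. The groups did not overlap, and the log2 fold change was 2.31 (SE 0.275, edgeR adjusted p = 3.00e-05). H3C10, with 8 and 0 counts in control and 18 and 17 in Erastin libraries, and H3C8, with 13 and 26 against 14 and 18, did not pass the test (adjusted p = 0.104 and 0.744). Without control replicate 1, H3C10 passed it (adjusted p = 0.0112). The remaining 8 clustered H3 genes had at most 16 counts in a library.

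H4C8 (ENSG00000158406, chr6:26277609-26285638) showed the largest fold change of the tested histone genes. It had 7 and 6 counts in control and 351 and 360 in Erastin libraries, with means of 0.211 ± 0.0253 and 11.6 ± 0.196 CPM (SD, n = 2) and a rise of 5.75 on the log2 scale (SE 0.281, edgeR adjusted p = 1.85e-08). Its share of the clustered sum went from 0.398% to 4.99%. H4C9 had 82 and 82 counts in control and 190 and 264 in Erastin libraries, with no overlap (log2 fold change 1.47, SE 0.231, adjusted p = 2.62e-04). H4C5 had 0 and 2 counts in control and 19 and 30 in Erastin libraries, a ratio of 25.5 with an exact 95% counting interval from 6.69 to 216. Its adjusted p was 0.00321, and without Erastin replicate 2 it was 0.0515. H4C16 on chromosome 12, outside the clusters of chromosomes 6 and 1, had 20 and 47 counts in control and 45 and 57 in Erastin libraries, and its groups overlapped (log2 fold change 0.61, SE 0.453). Its neighbour on chromosome 12 is the variant gene H2AJ, which fell.

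**Figure D4:**
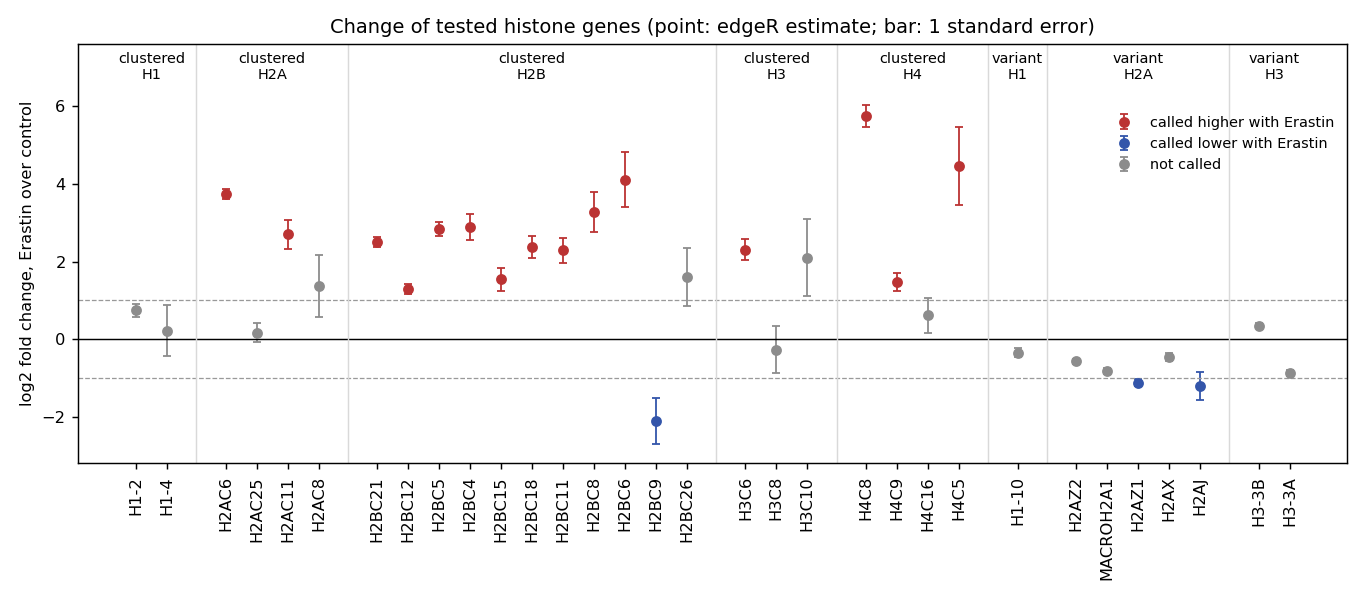
Log2 fold change of 32 tested histone genes, Erastin over control, as estimated by edgeR, with bars of 1 standard error and dashed lines at the fold threshold of 1 in either direction. Clustered genes spread from -2.10 (H2BC9) to 5.75 (H4C8), and variant genes lie between -1.20 (H2AJ) and 0.35 (H3-3B).

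Several H2A and H2B genes sit head to head, with their starts under 1000 bases apart. In 2 such pairs both genes were upregulated: H2BC4 and H2AC6, with 219 bases between their starts, and H2BC11 and H2AC11, with 292. In 3 other pairs the H2B gene was upregulated and its H2A partner was not: H2AC12, beside H2BC12, had no count in 3 libraries and 4 counts in 1, H2AC20, beside H2BC21, had 14 and 4 counts in control and 4 and 9 in Erastin libraries, and H2AC8, beside H2BC8, did not pass the test. In the other 6 H2A-H2B pairs neither gene was upregulated, among them H2AC25 and H2BC26, which were both tested.

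All 5 tested variant H2A genes fell. H2AZ1 had 4187 and 4791 counts in control and 2125 and 1986 in Erastin libraries, from 146 ± 12.2 to 67.1 ± 5.54 CPM (SD, n = 2). It was downregulated, with a log2 fold change of -1.12 (SE 0.0845, edgeR adjusted p = 6.98e-07). H2AZ2, which encodes a close relative of the same protein, had 4015 and 3919 counts in control and 2613 and 2706 in Erastin libraries and fell by 0.57 on the log2 scale (SE 0.0681, adjusted p = 3.04e-05), short of the fold threshold. MACROH2A1 had 4324 and 4073 counts in control and 2335 and 2383 in Erastin libraries (log2 fold change -0.82, SE 0.0716, adjusted p = 2.22e-06); 28.0% of its exon bases were also covered by PITX1-AS1 on the opposite strand, which had 27 and 25 counts in control and 11 and 14 in Erastin libraries. H2AX, the variant gene with a stem-loop, had 902 and 838 counts in control and 632 and 628 in Erastin libraries (-0.46, SE 0.111, adjusted p = 0.00507). H2AJ had 67 and 91 counts in control and 34 and 34 in Erastin libraries (-1.20, SE 0.351, adjusted p = 0.0142), and without control replicate 2 its adjusted p was 0.105. In all 5 tested variant H2A genes both Erastin libraries lay below both controls, against 36.9% of all tested genes. The summed variant H2A level went from 441 to 253 CPM. MACROH2A2 was not tested, with 0 and 1 counts in control and 4 and 9 in Erastin libraries (ratio 13.5, exact 95% counting interval from 2.03 to 575).

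The genes of replacement H3 diverged although they encode the same protein. H3-3A had 3027 and 3169 counts in control and 1644 and 1731 in Erastin libraries, a log2 fold change of -0.87 (SE 0.0715, edgeR adjusted p = 1.40e-06). H3-3B had 9568 and 9426 counts in control and 11934 and 12075 in Erastin libraries, a log2 fold change of 0.35 (SE 0.0634, adjusted p = 8.03e-04). Neither gene had overlapping groups, and neither passed the fold threshold. Their summed level went from 409 to 447 CPM, and H3-3B alone supplied 34.1% of the variant sum in control and 52.4% in Erastin-treated cells.

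Among the variant linker genes, H1-10 had 787 and 706 counts in control and 575 and 594 in Erastin libraries, with no overlap, and fell by 0.35 on the log2 scale (SE 0.117, edgeR adjusted p = 0.0290); 22.9% of its exon bases were also covered by H1-10-AS1 on the opposite strand, which fell from 67 and 81 to 8 and 11 counts. H1-7 had 4 counts in 1 Erastin library and none elsewhere, and H1-8 had none. Of the 9 tested variant genes, edgeR called none upregulated, against 6.24% of all tested genes, and 2 downregulated, against 9.34%, and DESeq2 gave the same counts. At an unadjusted p under 0.05, 1 was higher, under the fold threshold, and 7 were lower, against 26.5% and 26.7% of all tested genes. The median log2 fold change of the 9 was -0.57, with a range from -1.20 to 0.35.

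Levels were compared between genes per kilobase of exon. In control cells H2AZ1 led with 63.2 ± 5.31 CPM per kilobase (SD, n = 2), followed by H3-3B at 50.2 ± 1.09, H3-3A at 31.9 ± 0.678, H2BC12 at 27.2 ± 2.17 and H2AZ2 at 27.1 ± 0.767. The levels of H2BC12 and H2AZ2 differed by less than their SD. In Erastin-treated cells H2BC12, at 66.6 ± 8.33, and H3-3B, at 63.8 ± 1.69, led without differing beyond their SD. H2AC6 followed at 43.8 ± 5.04, having been twelfth in control cells at 3.28 ± 0.0596, and came before H2AZ1 at 29.1 ± 2.41 and H2BC5 at 22.8 ± 3.41. The clustered genes thus took 4 of the 6 highest places in Erastin-treated cells, against 1 of 6 in control cells. H2BC12 and H1-2 were counted over models that end before the stem-loop and H2AC6 and H3-3B over longer ones; the order was not compared under other models.

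**Figure D5:**
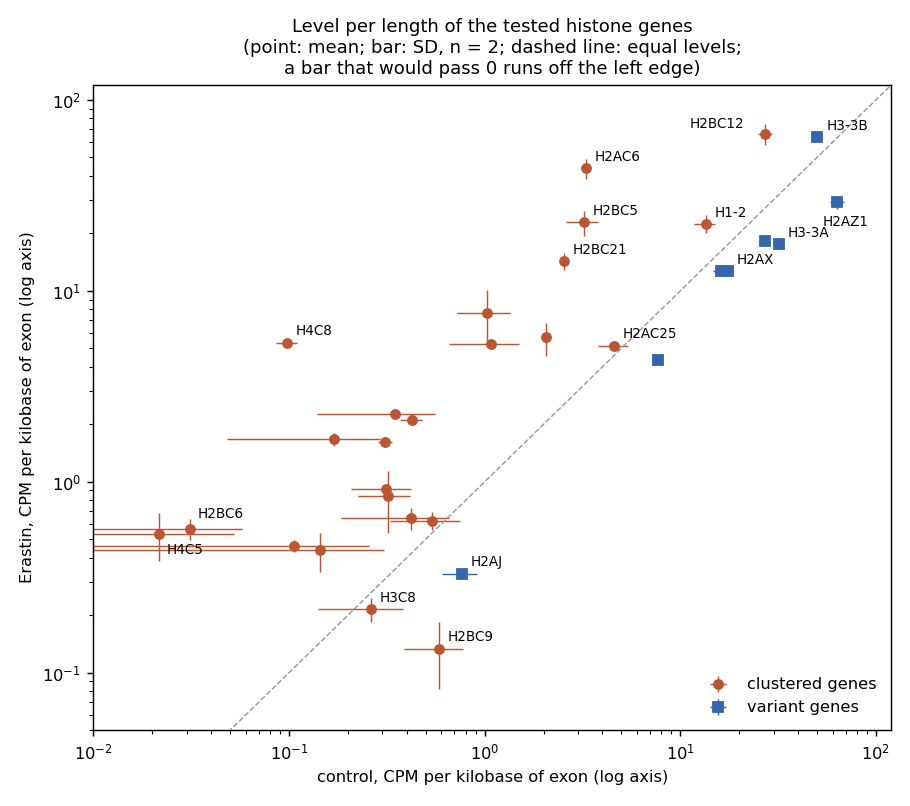
CPM per kilobase of exon in Erastin-treated against control cells for 32 tested histone genes (both axes log); points are means of 2 libraries, bars are SD, and the dashed line marks equal levels. Clustered genes lie mostly above the line, with H2AC6 at 3.28 in control and 43.8 in Erastin-treated cells, and variant genes lie along or below it, apart from H3-3B just above.

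Genes that make and end clustered histone mRNAs stayed under the fold threshold. Of 15 listed genes, all tested, edgeR called none in either direction, as did DESeq2; at an unadjusted p under 0.05, 4 were higher and 7 lower, and the same numbers passed the adjusted p alone, against 23.2% and 23.7% of all tested genes. NPAT, the activator of clustered histone transcription, had 608 and 670 counts in control and 503 and 432 in Erastin libraries (log2 fold change -0.44, adjusted p = 0.0180). SLBP had 2128 and 2418 counts in control and 1901 and 1785 in Erastin libraries (-0.29, adjusted p = 0.0160). LSM11, a subunit of the U7 particle that directs the cut after the stem-loop, had 417 and 416 counts in control and 201 and 228 in Erastin libraries (-0.95, adjusted p = 3.08e-04). LSM10, also listed, went the other way, from 939 and 919 counts in control to 1304 and 1450 in Erastin libraries (0.57, edgeR adjusted p = 3.48e-04). Of 2 subunits of the cutting complex, CPSF2 rose from 4016 and 4373 to 6539 and 6731 counts (0.67, adjusted p = 7.98e-06) and CPSF3 fell from 2592 and 2415 to 1582 and 1586 counts (-0.65, adjusted p = 3.50e-05).

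Several chaperones that receive newly made histones were downregulated. Of 17 listed genes 16 were tested, and 7 were downregulated, against 9.34% of all tested genes, and none upregulated, against 6.24% (6 and none by DESeq2). At an unadjusted p under 0.05, 12 were lower and none higher, against 26.7% and 26.5% of all tested genes. ASF1B, which carries H3-H4 to the replication fork, had 2187 and 1994 counts in control and 416 and 560 in Erastin libraries (log2 fold change -2.10). CHAF1B and CHAF1A are subunits of the chromatin assembly factor that deposits H3-H4 on copied DNA. CHAF1B had 812 and 805 counts in control and 177 and 223 in Erastin libraries (-2.01), and CHAF1A had 1689 and 1592 against 522 and 430 (-1.77). NASP, which keeps a soluble reserve of H3-H4, had 3419 and 3751 counts in control and 1115 and 1135 in Erastin libraries (-1.66). For these 4 genes the adjusted p lay between 1.20e-08 and 3.47e-07, and both Erastin libraries stood below both controls. The median over the 16 was -0.81.

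Among 16 genes that deposit or remove variants, 5 were downregulated, against 9.34% of all tested genes, and none upregulated, against 6.24%; DESeq2 gave the same counts. At an unadjusted p under 0.05, 6 were lower and 4 higher, against 26.7% and 26.5% of all. HJURP, OIP5 and MIS18A take part in placing the centromeric H3 variant CENPA. HJURP fell from 1364 and 1370 to 112 and 123 counts (-3.53, adjusted p = 1.38e-09), OIP5 from 106 and 112 to 34 and 18 (-2.05, adjusted p = 7.72e-04) and MIS18A from 661 and 629 to 314 and 254 (-1.17, adjusted p = 5.49e-05). ANP32E, which removes H2A.Z, fell from 2715 and 2813 to 1347 and 1323 counts (-1.04, adjusted p = 5.72e-07). Without Erastin replicate 2, the change of MIS18A was -0.99, under the fold threshold, and 3 of the 16 were downregulated. CENPA itself, outside the rule, fell from 456 and 509 to 39 and 79 counts (-3.03, adjusted p = 1.61e-06). HIRA and DAXX place replacement H3 outside centromeres. HIRA had 436 and 438 counts in control and 394 and 444 in Erastin libraries (-0.05, adjusted p = 0.768), and DAXX had 14 and 30 against 26 and 24 (0.20, adjusted p = 0.802). The groups of both genes overlapped.

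Genes of the cell cycle and RNAs without a tail were measured beside the clustered genes. Of 43 S-phase genes 30 were downregulated, against 9.34% of all tested genes, and none upregulated, with none higher at an unadjusted p under 0.05, and their summed level was 2214 CPM in both control libraries and 983 and 946 CPM in the Erastin libraries; of 54 G2/M-phase genes 45 were downregulated and none upregulated, with 1 higher at an unadjusted p under 0.05, and DESeq2 called none upregulated in either list. These lists hold 2 of the 15 mRNA-processing genes, 2 of the 17 chaperones and 2 of the 16 deposition genes named above, and CENPA. Of 35 RNAs that normally carry no poly(A) tail, 3 were tested, RN7SL2 (207 and 89 to 24 and 42 counts) and VTRNA1-2 (17 and 11 to 2 and 0 counts) were downregulated (1 of them also by DESeq2) and SNORD17 did not pass the test; the summed level of the 35 was 8.50 and 4.80 CPM in control and 2.54 and 2.58 CPM in Erastin libraries. Whether poly(A) RNA was selected is not given in the sources used here. The part of cell-cycle position and of tail length in the change of clustered histone counts was not tested.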

How the data were processed

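The authors deposited raw counts of reads per gene for 4 RNA libraries; per the file header they were made by featureCounts 2.0.3 (2.0.4 in the submitters' processing notes, which also name HISAT2 2.1.0) with Ensembl release 90 on GRCh38, without strand, without multi-mapped reads, and with the reads of a pair counted separately. The study's methods name htseq-count instead. The deposited numbers hold no decimals, as estimated counts would; rounding left each as it was. Totals and depths are given above. Reads of a pair and PCR copies are not independent molecules, but the intervals took each read as independent. They cover counting error only and are too narrow even for that.

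Groups followed the labels. edgeR 4.0.16 (R 4.3.3) was fitted to the whole table without a block: TMM after filterByExpr (minimum count 10), then the two-sided quasi-likelihood test with Benjamini-Hochberg adjustment. With 2 libraries against 2, an exact permutation test cannot give a p below 0.333. The standard error (SE) is not an output of that test. It was derived as the absolute log2 fold change divided by the square root of the test's F statistic, and is approximate. CPM used TMM-scaled library sizes. Sums, medians and counts of members are descriptions. The scripts were tested on simulated data. Symbols came from GENCODE release 44 by Ensembl identifier; 4 symbols of the rule had identifiers that were not in the table, and rows at their places had at most 10 counts in a library.

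Counts, fold changes and p-values were printed for the tested variant genes and for the tested member with the highest mean CPM and up to 4 called members in each direction per clustered family. Pathway genes were named likewise, with up to 4 called genes per list and SLBP, NPAT, HIRA, DAXX and CENPA whatever their change; LSM11, CPSF2, CPSF3, ANP32E and the other genes named with values were chosen after these were seen. 1 tested variant gene and 1 deposition gene are not reported here. Members and lists were chosen with earlier results of these data known. S-phase and G2/M-phase lists came from Seurat 5.3.0. The fit was repeated with each library left out, with a replicate block and with counts halved and rounded up. Read pairs themselves were not recounted. Further repeats used no filter or at least 10 counts in every library, library totals or RLE size factors, and DESeq2 1.42.0.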

Additional observations from a re-analysis of the deposited data

How the results depend on the processing

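Of the 33 tested histone genes, 25 kept their sign and their side of the thresholds in every alternative that gave a value. The count of upregulated clustered genes was 14 to 16 with each library left out, and that of downregulated clustered genes 0 to 1 (2 without the filter, where H4C3 joined H2BC9, and 0 with at least 10 counts in every library, which leaves out H2BC9). The count of downregulated variant genes was 1 to 2 with each library left out, that of mRNA-processing genes 0 to 1 and that of deposition genes 3 to 5. The clustered median was 1.58 with DESeq2 and 1.54 without the filter, where 52 genes gave a value, and 1.70 to 2.45 with each library left out; the variant median was -0.46 in both of the former. The log2 ratio of the clustered sum, 2.13, was 2.03 to 2.22 with each library left out, and that of the variant sum, -0.27, was -0.22 with library totals. With each library left out, signs turned for these genes that had not passed the test: the range was -0.24 to 0.82 for DAXX, -0.13 to 0.67 for H1-4 and -0.68 to 0.28 for H3C8. The causes were not tested.

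Same-numbered libraries deviated from their group means with a correlation of 0.0203, so the numbers were not taken to pair them. With a replicate block, 16 clustered genes were upregulated, the 15 above and H2BC26 (1.90), and 1039 of all genes were upregulated against 1046. Genes with under 10 counts over the 4 libraries, 33 of the 77, are beyond the depth of these data.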

Other observations

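Rows that lie beside the histone genes but outside the rule gave further values. H2BC20P, a transcribed pseudogene in the chromosome 1 cluster (chr1:149844498-149849024), had 238 and 350 counts in control and 452 and 443 in Erastin libraries, with no overlap, and rose by 0.62 on the log2 scale (SE 0.178, edgeR adjusted p = 0.0137), under the fold threshold. H1-10-AS1, a noncoding RNA antisense to H1-10, had 67 and 81 counts in control and 8 and 11 in Erastin libraries, a log2 fold change of -2.94 (SE 0.444, adjusted p = 1.93e-04), while H1-10 changed by -0.35. H3-4, H3-5 and H2BC12L, histone genes outside the rule, had at most 9 counts in a library.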
